A study of Homo sapiens with 6 samples.

Results

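The genes described here are the 13 messenger RNAs (mRNAs) that mitochondrial DNA (mtDNA) encodes and 27 nuclear genes whose proteins copy, transcribe, process, degrade or translate mtDNA products, 40 of the 19021 rows of the deposited gene table, chosen by symbol. They were measured in Huh7, a human hepatocellular carcinoma line of labelled genotype WT, grown in 6-well plates with DMSO, the solvent control (3 libraries), or with carfilzomib, a proteasome inhibitor (3 libraries), for 24 h. The dose was not stated in the labels, nor whether replicate libraries came from different cultures; the p-values therefore rest on a spread between libraries that may be technical.

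Human mtDNA is a small circle whose strands are each transcribed by the polymerase POLRMT, from promoters in a control region, into long precursors that carry mRNAs, ribosomal RNAs (rRNAs) and transfer RNAs (tRNAs). Cutting out the tRNAs releases most mRNAs, so the amount of each mRNA depends on transcription, on processing and on how long the RNA is kept. The mRNAs of mtDNA encode subunits of the respiratory chain and of ATP synthase, complexes that also contain many subunits made from nuclear genes.

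The 13 rows could be tied to human mtDNA through their lengths. The submitters' processing notes name a mouse genome build, GRCm39, but the gene length behind each FPKM value (fragments per kilobase of gene, scaled to library reads) could be recovered along with whole reads, and for all 13 mRNAs it equalled the length of the human gene in GENCODE v29 (GRCh38). On that annotation 12 genes lie on the same strand and ND6 on the other, and 3 pairs of neighbours share bases: ATP8 and ATP6 share 46, ND4L and ND4 share 7, and ATP6 and COX3 share 1. The sequence of ATP8 is shown from GENCODE v29 (chrM:8366-8572, plus strand, GRCh38), because it is the shortest of these genes and overlaps most with a neighbour, together with the last 60 bases of ND4L (chrM:10707-10766, plus strand). Capitals mark the bases shared with ATP6 and with ND4.
ATP8: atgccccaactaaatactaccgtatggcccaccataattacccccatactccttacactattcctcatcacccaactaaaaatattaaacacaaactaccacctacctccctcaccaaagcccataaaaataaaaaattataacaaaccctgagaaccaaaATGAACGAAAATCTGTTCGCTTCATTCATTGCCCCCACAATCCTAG
ND4L: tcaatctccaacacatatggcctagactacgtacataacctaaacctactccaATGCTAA
The shared bases are 22.2% of ATP8 and 2.36% of ND4L. The sources used here do not say how reads in shared bases were counted or whether counting used strand, so the levels of these overlapping genes, and of ND6 opposite the other transcripts, are uncertain.

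Library totals recovered from the FPKM values were 38386581 to 39651170 reads. All 9 hepatocyte markers, albumin and alpha-fetoprotein among them, had a mean above 1 FPKM, and their summed level was 11113 to 11411 FPKM with DMSO and 6546 to 6616 FPKM with carfilzomib. Of the 9, 7 fell, while KRT18 rose from 1006 ± 28.4 to 1550.1 ± 35.6 FPKM and KRT8 had 1326 ± 41.6 and 1347 ± 18.7 FPKM (limma adjusted p = 0.494). Over all genes tested by the limma fit given below, 44.9% were lower and 36.7% higher. Of the fibroblast markers, 2 of 5 passed 1 FPKM (summed 18.9 to 19.1 FPKM with DMSO and 15.05 to 15.1 FPKM with carfilzomib), as did 1 of 3 endothelial markers in the table (summed 3.74 to 4.33 FPKM with DMSO and 2.38 to 2.97 FPKM with carfilzomib) and 2 of 3 immune markers in the table, LYZ and CD68 (summed 344 to 357 FPKM with DMSO and 203 to 231 FPKM with carfilzomib), of which LYZ fell from 319 ± 7.20 to 172 ± 14.6 FPKM and CD68 rose from 33.2 ± 0.392 to 46.9 ± 0.501 FPKM. The leukocyte marker PTPRC, the endothelial markers CDH5 and VWF and the fibroblast marker DCN were at or near 0 in both groups. The fibroblast markers above 1 FPKM were LUM (12.3 ± 0.368 with DMSO and 10.8 ± 0.177 FPKM with carfilzomib) and COL1A2 (5.93 ± 0.250 and 3.41 ± 0.0822 FPKM). The endothelial marker above 1 FPKM was PECAM1 (3.94 ± 0.334 and 2.58 ± 0.312 FPKM). The part of these markers in the results was not tested. In bulk libraries fewer cells of a type and less RNA per cell cannot be told apart, and every level here is relative to the library total.

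The mRNAs of mtDNA fell with carfilzomib. All 13 were lower by limma (linear models on log2(FPKM + 1), Benjamini-Hochberg adjustment over the 11153 genes with a mean of at least 1 FPKM, threshold 0.05), where 44.9% of all genes tested were lower and 81.6% differed in either direction. Their median log2 difference was -0.47, against -0.07 over all genes tested. The groups of libraries did not overlap for 13 of 13, against 82.8% of all genes tested. Quantile normalization, which sets each value by its rank, turned ND1, ND3, ND4L, ND5 and COX1 to higher values and ended the call of ND4 (0, limma adjusted p = 1); in the deposited values 12 of the 13 mRNAs stood among the 25 highest rows of the table in both groups.

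By library, these mRNAs held 5.81%, 5.94% and 5.90% of the recovered library total with DMSO and 4.34%, 4.44% and 4.38% with carfilzomib. Genes of the deposited table covered 99.6% of these totals, which may leave out reads not assigned to a gene. Every carfilzomib library lay below every DMSO library, and the mean went from 5.88 ± 0.0645% to 4.39 ± 0.0462% (SD, n = 3). As a share of summed FPKM, which weighs genes by level per length, the mRNAs went from 16.5 ± 0.111% to 12.2 ± 0.0799%.

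**Figure D1:**
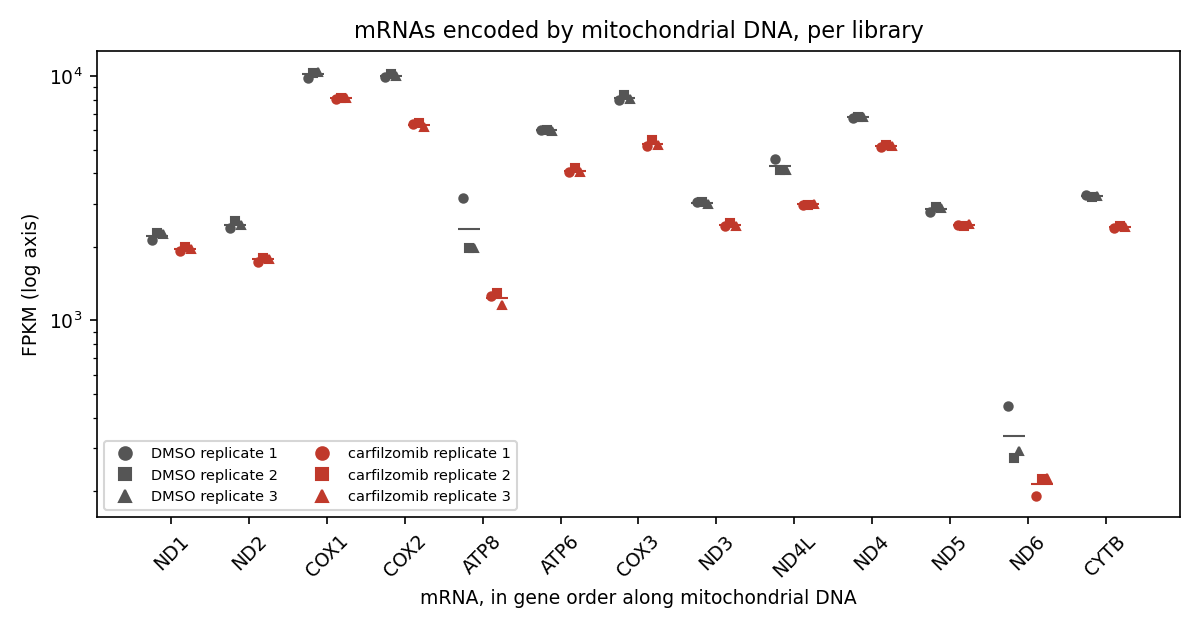
FPKM of the 13 mtDNA mRNAs (log axis) in each of the 6 libraries, in gene order along mtDNA, with a line at each group's mean. The carfilzomib points lie below the DMSO points for each mRNA, and DMSO replicate 1 stands above the other DMSO libraries for ATP8 and ND6.

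Within cytochrome c oxidase (complex IV), the 3 mtDNA-encoded subunits all fell. COX2, which carries the copper site that takes electrons from cytochrome c, had 9898, 10193 and 9984 FPKM with DMSO and 6343, 6411 and 6209 FPKM with carfilzomib. It was lower in each carfilzomib library, at 0.631 of the DMSO mean (log2 difference of -0.67 with SE 0.0316, limma adjusted p = 2.47e-08). COX3, a core membrane subunit, had 8007, 8341 and 8017 FPKM with DMSO and 5158, 5472 and 5207 FPKM with carfilzomib, again with no overlap (log2 difference of -0.62 with SE 0.0357, limma adjusted p = 1.02e-07). COX1, the catalytic subunit and the gene with the highest mean in both groups, had 9812, 10242 and 10382 FPKM with DMSO and 8029, 8116 and 8134 FPKM with carfilzomib. Its groups did not overlap either, and it stayed at 0.798 of the DMSO mean (log2 difference of -0.33 with SE 0.0338, limma adjusted p = 8.65e-06). The level of COX2 relative to COX1 went from 0.989 ± 0.0242 to 0.781 ± 0.0153 (ratio of FPKM, SD, n = 3), and no carfilzomib library reached the lowest DMSO ratio.

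Both mtDNA-encoded subunits of ATP synthase fell. ATP6, part of the proton channel, had 6027, 6023 and 5978 FPKM with DMSO and 4043, 4196 and 4065 FPKM with carfilzomib, with all carfilzomib libraries below all DMSO libraries (log2 difference of -0.55 with SE 0.0300, limma adjusted p = 6.89e-08). ATP8, a small membrane subunit read from the same bicistronic mRNA, had 3168, 1985 and 1971 FPKM with DMSO and 1253, 1299 and 1155 FPKM with carfilzomib. DMSO replicate 1 stood far above the other DMSO libraries, and the carfilzomib libraries lay below those too. The ATP8 difference (log2 difference of -0.91 with SE 0.153, limma adjusted p = 3.16e-04) was -0.68 without DMSO replicate 1 (limma adjusted p = 4.72e-07).

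All 7 mtDNA-encoded subunits of complex I, NADH dehydrogenase, fell. ND1, which lies next to the quinone site, had 2132, 2277 and 2251 FPKM with DMSO and 1919, 2006 and 1953 FPKM with carfilzomib, the difference closest to 0 among the 13 (log2 difference of -0.18 with SE 0.0343, limma adjusted p = 7.38e-04). ND5, a proton-pumping subunit, had 2784, 2909 and 2881 FPKM with DMSO and 2450.4, 2436 and 2491 FPKM with carfilzomib (log2 difference of -0.22 with SE 0.0299, limma adjusted p = 7.37e-05). Neither gene's groups overlapped, although with median-of-ratios scaling their log2 differences were -0.10 and -0.14. ND3, in the membrane arm, had 3056, 3048 and 2980.5 FPKM with DMSO and 2433, 2508 and 2423 FPKM with carfilzomib (log2 difference of -0.30 with SE 0.0293, limma adjusted p = 5.15e-06). ND4, another proton-pumping subunit, had 6735, 6814 and 6804 FPKM with DMSO and 5108, 5215 and 5147 FPKM with carfilzomib (log2 difference of -0.40 with SE 0.0291, limma adjusted p = 6.49e-07). In both genes each carfilzomib library was below each DMSO library. ND2, of the same pump family, had 2385, 2549 and 2454 FPKM with DMSO and 1731, 1808 and 1787 FPKM with carfilzomib (log2 difference of -0.47 with SE 0.0338, limma adjusted p = 5.29e-07). ND4L, a small membrane subunit, had 4560.3, 4141 and 4113 FPKM with DMSO and 2976, 2969 and 3007 FPKM with carfilzomib (log2 difference of -0.52 with SE 0.0416, limma adjusted p = 1.28e-06). Their groups did not overlap, and DMSO replicate 1 was the highest library for ND4L and the lowest DMSO library for ND2.

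ND6, encoded on the strand opposite to the other mtDNA mRNAs and known to lack a stable poly(A) tail, which mRNA library kits select for, had the lowest level of the 13. Selection by tail bears on the other mtDNA mRNAs too, and tails were not measured here. It had 445, 273 and 292 FPKM with DMSO and 192, 225 and 226 FPKM with carfilzomib. DMSO replicate 1 was far above the other DMSO libraries, while the highest carfilzomib library stayed below the lowest DMSO library. The ND6 difference (log2 difference of -0.62 with SE 0.154, limma adjusted p = 0.00393) was -0.40 without DMSO replicate 1 (limma adjusted p = 3.86e-04). CYTB, cytochrome b, the mtDNA-encoded subunit of complex III, had 3243, 3201 and 3242 FPKM with DMSO and 2381, 2429 and 2411 FPKM with carfilzomib, with no overlap (log2 difference of -0.42 with SE 0.0274, limma adjusted p = 2.46e-07).

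DMSO replicate 1 differed from the other DMSO libraries in the make-up of this set. Its ratio to the mean of the other DMSO libraries was 1.60 for ATP8, 1.58 for ND6 and 1.11 for ND4L, and 0.942 to 1.01 for the remaining 10 mRNAs. Over all 11153 genes tested the median ratio was 0.988, and 39 genes reached the ratio of ATP8. ATP8 with 207 bases and ND4L with 297 are the shortest of the 13 genes, while ND6 has 525.

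The mRNAs did not keep their proportions to each other. As a share of the summed FPKM of the 13, which does not depend on library scaling, COX2, ATP8, ATP6 and COX3, which lie next to each other on mtDNA, were lower in every carfilzomib library than in every DMSO library. Together they made up 42.3% to 43.5% of the pool with DMSO and 37.6% to 38.5% with carfilzomib. Shares of ND1, COX1, ND3, ND4, ND5 and CYTB were higher in each carfilzomib library, and those of ND2, ND4L and ND6 overlapped between groups. Measured against the same sum of 13 mRNAs, 84.8% of all genes tested had groups that did not overlap. That is a larger part than among the 13 shares (6 higher and 4 lower). The sum itself fell with carfilzomib, so the 84.8% may also count genes whose own level held steady, and it is an unlike background. Because shares add up to the whole, a lower share of some mRNAs raises that of others. COX1 went from 16.4 ± 0.590% to 18.2 ± 0.199% of the pool and COX2 from 16.2 ± 0.277% to 14.2 ± 0.184% (SD, n = 3). The 7 complex I mRNAs together went from 35.5 ± 0.00567% to 38.3 ± 0.236%. COX2 relative to ND1 was 4.64, 4.48 and 4.44 with DMSO and 3.30, 3.196 and 3.18 with carfilzomib.

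**Figure D2:**
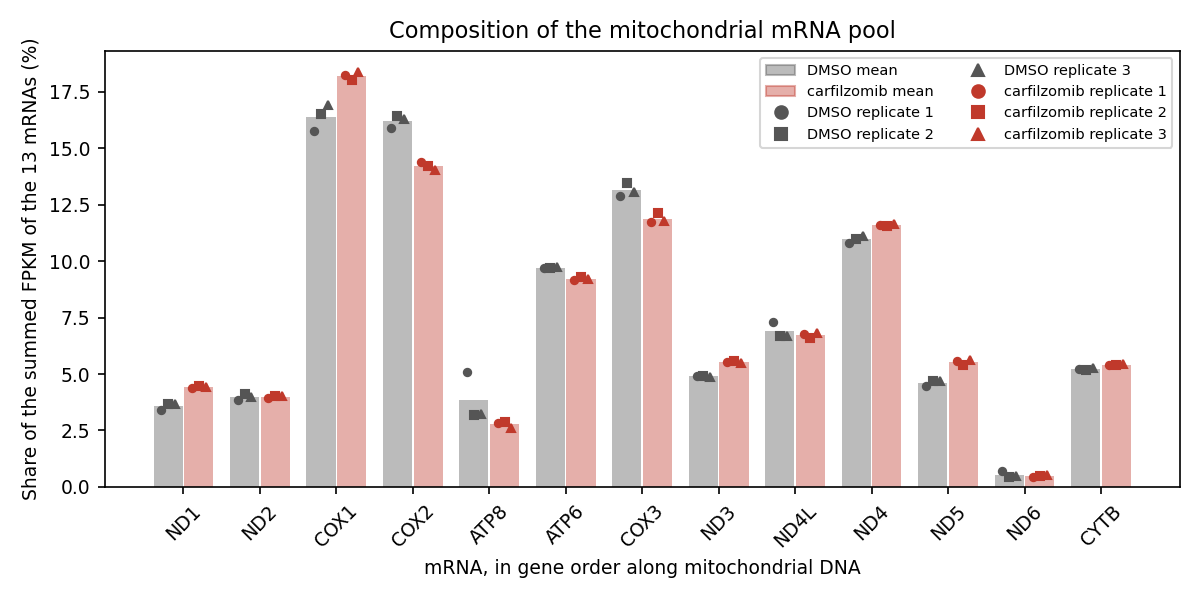
Share of each mRNA in the summed FPKM of the 13 mtDNA mRNAs (percent), in gene order along mtDNA, where bars are group means and symbols are libraries. The adjacent genes COX2, ATP8, ATP6 and COX3 hold a lower share with carfilzomib, and ND1, COX1, ND3, ND4, ND5 and CYTB a higher one.

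The nuclear genes for mtDNA expression moved in both directions. Of 27, 12 rose, 7 fell and 8 did not pass the test, so 70.4% differed, against 81.6% of all genes tested (36.7% higher and 44.9% lower). Their median log2 difference was 0.04, against -0.07 over all genes tested. Their combined share of reads went from 0.173 ± 0.00142% to 0.184 ± 0.00296% (SD, n = 3), with no overlap between groups. That sum weighs genes by reads, of which LRPPRC and TUFM had the most, and a lower mtDNA share of the same total raises it. In GENCODE v29, 11 of the 27 share exon bases with another gene of the table, up to 11.3% (MTIF3 with GTF3A), on the opposite strand except for FASTKD5 with UBOX5.

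**Figure D3:**
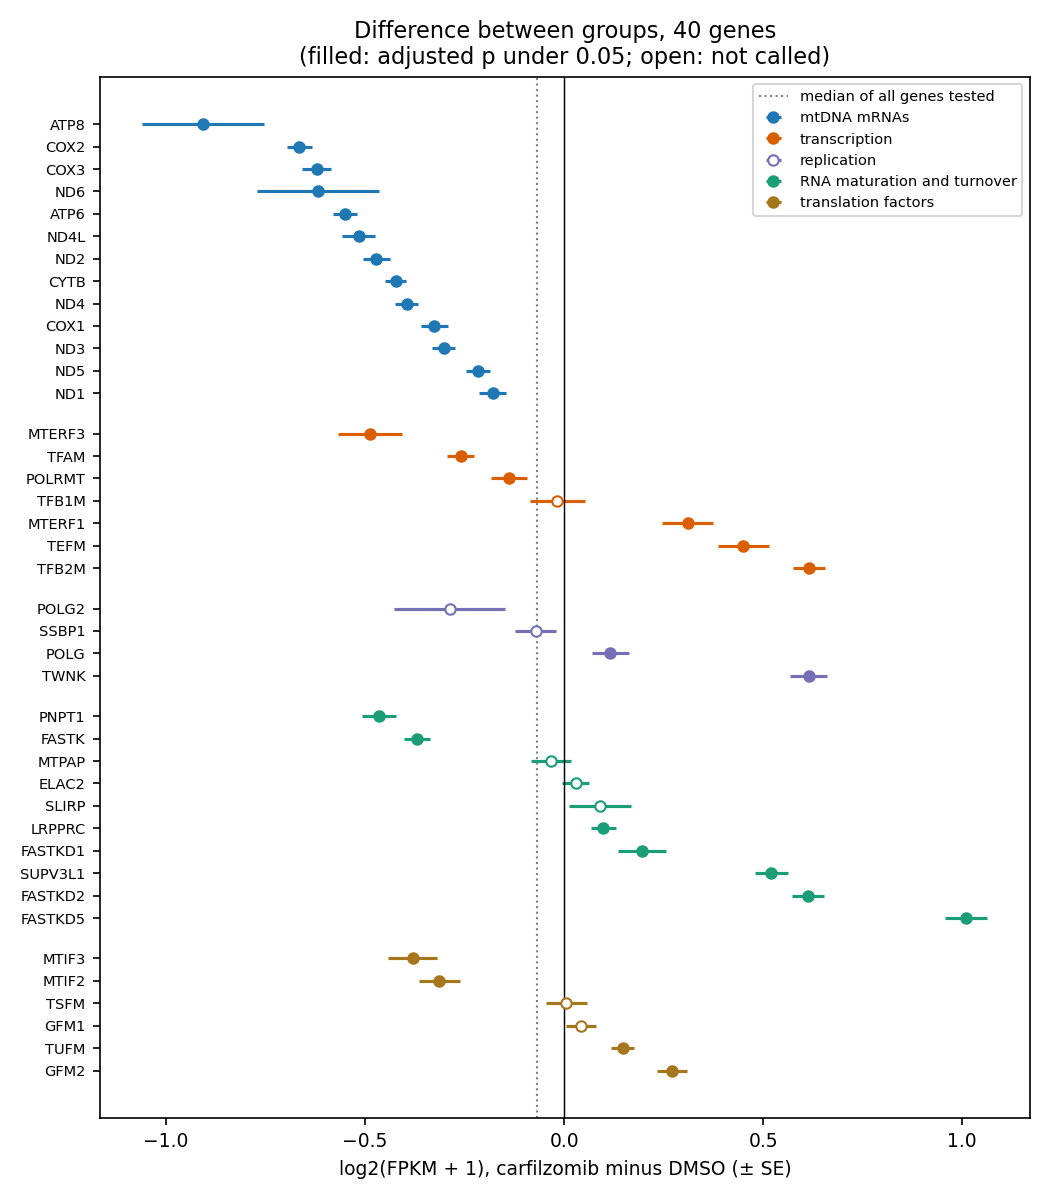
Log2 difference (carfilzomib minus DMSO, log2(FPKM + 1) scale) with its standard error from limma for the 40 genes, grouped by role, with called genes filled, others open and a dotted line at the median of all genes tested. The 13 mtDNA mRNAs lie to the left of 0 and the nuclear genes spread from -0.49 (MTERF3) to 1.01 (FASTKD5).

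Among transcription genes, 3 rose, 3 fell and 1 did not pass. The share that differed was 85.7%, against 81.6% of all genes tested (36.7% higher and 44.9% lower). TFAM, which packages mtDNA and bends it at the promoters, had 25.6, 24.8 and 25.02 FPKM with DMSO and 20.9, 21.2 and 20.4 FPKM with carfilzomib. All carfilzomib libraries were lower, at 0.829 of the DMSO mean (log2 difference of -0.26 with SE 0.0333, limma adjusted p = 4.31e-05). TFB2M, the initiation factor that opens the promoter with POLRMT, had 17.9, 17.4 and 17.7 FPKM with DMSO and 27.4, 28.9 and 26.4 FPKM with carfilzomib. It moved opposite to TFAM, reaching 1.56 times the DMSO mean (log2 difference of 0.61 with SE 0.0398, limma adjusted p = 2.52e-07), and TFB2M relative to TFAM went from 0.703 ± 0.00436 to 1.32 ± 0.0390 (ratio of FPKM, SD, n = 3). POLRMT, the polymerase itself, had 27.2, 25.2 and 24.6 FPKM with DMSO and 23.3, 22.3 and 24.03 FPKM with carfilzomib. Its groups did not overlap, but the call (log2 difference of -0.14 with SE 0.0456, limma adjusted p = 0.0176) was lost with median-of-ratios scaling (-0.06, limma adjusted p = 0.239), after rescaling to TPM (-0.10, limma adjusted p = 0.0587), and on leaving out DMSO replicate 1 (-0.10, limma adjusted p = 0.0589) or carfilzomib replicate 2 (-0.11, limma adjusted p = 0.0684).

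The elongation factor TEFM had 3.34, 3.05 and 3.62 FPKM with DMSO and 4.87, 5.20 and 4.70 FPKM with carfilzomib, higher in every carfilzomib library (log2 difference of 0.45 with SE 0.0642, limma adjusted p = 9.42e-05). MTERF1, which binds mtDNA just past the rRNA genes and stops transcription there, rose from 4.34 ± 0.212 to 5.64 ± 0.474 FPKM (log2 difference of 0.31 with SE 0.0638, limma adjusted p = 0.00119). MTERF3, a related protein reported to hold back mtDNA transcription in mice, fell from 6.52 ± 0.578 to 4.37 ± 0.536 FPKM (log2 difference of -0.49 with SE 0.0811, limma adjusted p = 2.82e-04). TFB1M, a methyltransferase of the small-subunit rRNA, had 1.97 ± 0.116 and 1.94 ± 0.170 FPKM, and its groups overlapped (limma adjusted p = 0.823). The mitochondrial rRNAs RNR1 and RNR2 were not analysed here.

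Of the 4 replication genes, 2 rose and 2 did not pass, so 50% differed, below the 81.6% of all genes tested. TWNK, the mtDNA helicase Twinkle, had 6.88, 7.04 and 7.28 FPKM with DMSO and 10.9, 11.9 and 11.3 FPKM with carfilzomib, with every carfilzomib library above every DMSO library (log2 difference of 0.61 with SE 0.0464, limma adjusted p = 7.85e-07). POLG, the catalytic subunit of the mtDNA polymerase, had 17.2, 16.9 and 17.3 FPKM with DMSO and 17.3, 19.3 and 19.3 FPKM with carfilzomib. The lowest carfilzomib library lay just above the highest DMSO library, and the call (log2 difference of 0.12 with SE 0.0457, limma adjusted p = 0.0382) was lost in 8 of 18 alternatives, among them those leaving out DMSO replicate 1, 2 or 3 (log2 differences of 0.12, 0.11 and 0.12) and carfilzomib replicate 2 or 3 (0.09 each). POLG2, its accessory subunit, had 4.42 ± 0.917 and 3.44 ± 0.771 FPKM with overlapping groups (log2 difference of -0.29 with SE 0.140, limma adjusted p = 0.0807). It passed on leaving out DMSO replicate 3 (-0.42, limma adjusted p = 0.0133) or carfilzomib replicate 1 (-0.43, limma adjusted p = 0.0128). SSBP1, which coats single-stranded mtDNA, had 49.1 ± 3.28 and 46.6 ± 2.38 FPKM (limma adjusted p = 0.224), and it passed with quantile normalization (-0.12, limma adjusted p = 0.0432).

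RNA maturation and turnover held the largest rise among the 40 genes. FASTKD5, needed to free mitochondrial mRNAs whose ends are not marked by a tRNA, had 13.4, 14.6 and 13.1 FPKM with DMSO and 27.1, 30.4 and 28.4 FPKM with carfilzomib. Every carfilzomib library was above every DMSO library, and the mean was 2.09 times that with DMSO (log2 difference of 1.01 with SE 0.0532, limma adjusted p = 5.33e-08). FASTKD2, which binds the large-subunit rRNA and ND6 mRNA, had 8.79, 8.73 and 8.87 FPKM with DMSO and 14.5, 13.9 and 13.6 FPKM with carfilzomib, also without overlap (log2 difference of 0.61 with SE 0.0406, limma adjusted p = 2.96e-07). FASTK, whose mitochondrial form is needed for ND6 mRNA, moved the other way, with 33.4, 32.4 and 31.96 FPKM with DMSO and 25.1, 24.9 and 25.03 FPKM with carfilzomib (log2 difference of -0.37 with SE 0.0320, limma adjusted p = 2.20e-06). FASTKD1, of the same family, had 3.27 ± 0.204 and 3.88 ± 0.201 FPKM (log2 difference of 0.20, limma adjusted p = 0.0125), a call lost on leaving out DMSO replicate 3 (0.16, limma adjusted p = 0.0501) or carfilzomib replicate 1 (0.16, limma adjusted p = 0.0507).

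The subunits of the mitochondrial degradosome, which removes surplus and antisense RNA, moved in opposite directions. SUPV3L1, its helicase, had 8.51, 8.94 and 8.93 FPKM with DMSO and 13.02, 13.4 and 12.7 FPKM with carfilzomib (log2 difference of 0.52 with SE 0.0420, limma adjusted p = 1.29e-06). PNPT1, its exonuclease, had 15.5, 16.1 and 15.98 FPKM with DMSO and 11.4, 11.7 and 10.6 FPKM with carfilzomib (log2 difference of -0.46 with SE 0.0434, limma adjusted p = 3.94e-06). SUPV3L1 relative to PNPT1 went from 0.555 ± 0.00595 to 1.16 ± 0.0267 (ratio of FPKM, SD, n = 3), with no overlap between groups.

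Of the partners that bind and protect mitochondrial mRNAs, LRPPRC rose and SLIRP did not pass. LRPPRC had 45.8, 46.02 and 45.2 FPKM with DMSO and 47.5, 50.5 and 48.9 FPKM with carfilzomib (log2 difference of 0.10 with SE 0.0322, limma adjusted p = 0.0166). Its call was lost with quantile normalization (0.05, limma adjusted p = 0.179), with scaling to the library total without the 13 mtDNA mRNAs (0.08, limma adjusted p = 0.0501), and on leaving out DMSO replicate 3 (0.09, limma adjusted p = 0.0518) or carfilzomib replicate 2 (0.08, limma adjusted p = 0.0630). SLIRP had 85.1, 65.9 and 68.6 FPKM with DMSO and 75.7, 78.3 and 78.4 FPKM with carfilzomib, so that DMSO replicate 1 lay above all carfilzomib libraries and the other DMSO libraries below them. Its difference (log2 difference of 0.09 with SE 0.0785, limma adjusted p = 0.306) was 0.20 without DMSO replicate 1 (limma adjusted p = 3.13e-04). MTPAP, the mitochondrial poly(A) polymerase, had 5.91 ± 0.106 and 5.76 ± 0.284 FPKM (limma adjusted p = 0.554). ELAC2, which cuts the 3′ end of tRNAs from the precursor, had 26.1 ± 0.707 and 26.7 ± 0.501 FPKM (limma adjusted p = 0.456), and it passed with median-of-ratios scaling (0.10, limma adjusted p = 0.0219).

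**Figure D4:**
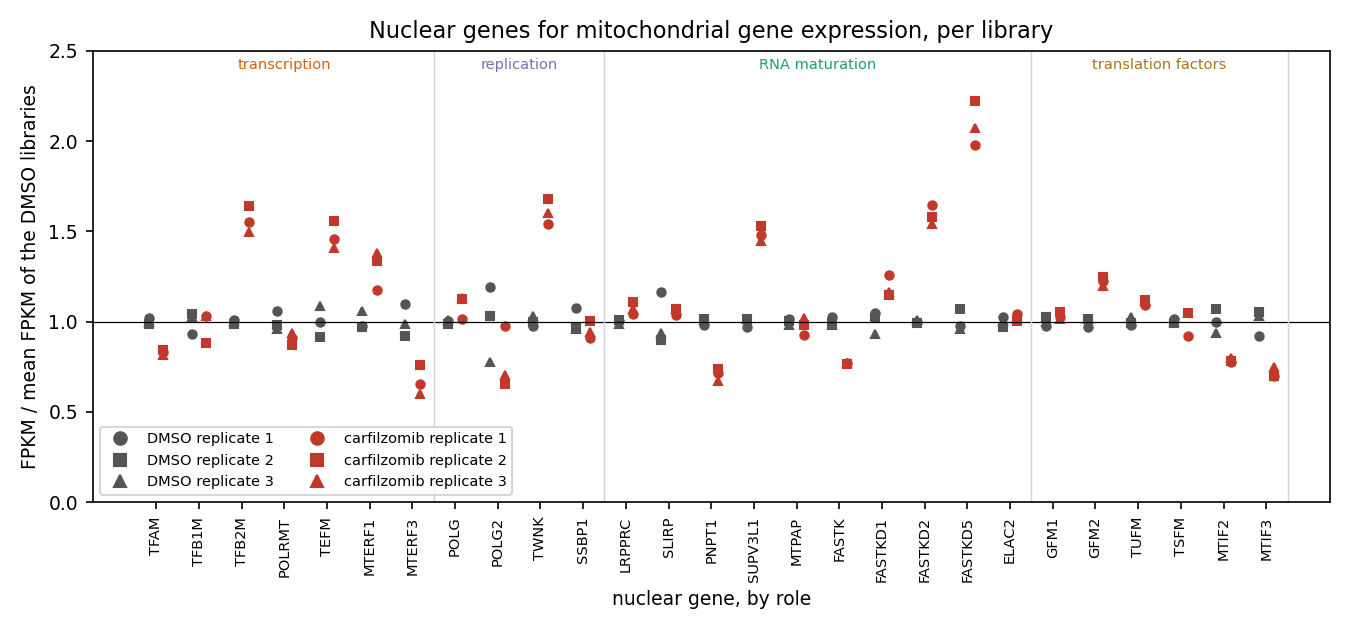
FPKM of the 27 nuclear genes in each library divided by the mean FPKM of the DMSO libraries (no unit), ordered by role, with 1 symbol per library. FASTKD5 stands highest with carfilzomib (2.09 times the DMSO mean), and MTERF3, PNPT1 and MTIF3 lie below the DMSO libraries.

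Of the 6 translation factors, 2 rose, 2 fell and 2 did not pass, so 66.7% differed, below the 81.6% of all genes tested. MTIF2 and MTIF3, the initiation factors, both fell. MTIF2 had 10.3, 11.1 and 9.73 FPKM with DMSO and 8.07, 8.09 and 8.29 FPKM with carfilzomib (log2 difference of -0.31 with SE 0.0507, limma adjusted p = 2.36e-04), and MTIF3 had 4.01, 4.60 and 4.49 FPKM with DMSO and 3.04, 3.05 and 3.26 FPKM with carfilzomib (log2 difference of -0.38 with SE 0.0608, limma adjusted p = 2.13e-04). The groups of both genes were apart. GFM2, which splits ribosomes after termination, had 11.7, 12.2 and 12.2 FPKM with DMSO and 14.8, 15.03 and 14.4 FPKM with carfilzomib, higher in each carfilzomib library (log2 difference of 0.27 with SE 0.0386, limma adjusted p = 9.36e-05). TUFM, the elongation factor that brings tRNAs to the ribosome, rose from 102 ± 2.29 to 113 ± 1.59 FPKM (log2 difference of 0.15, limma adjusted p = 8.68e-04), a call lost with quantile normalization (0.03, limma adjusted p = 0.412). GFM1, the translocation factor, had 13.2 ± 0.339 and 13.6 ± 0.245 FPKM (limma adjusted p = 0.328), and it passed with median-of-ratios scaling (0.11, limma adjusted p = 0.0172). TSFM, which recharges TUFM, had 14.1 ± 0.188 and 14.2 ± 1.04 FPKM (limma adjusted p = 0.918), a difference smaller than the SD of either group.

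Wider lists of mitochondrial gene expression genes were read against the same background of 81.6% differing (36.7% higher and 44.9% lower). Of 13 further RNA processing and turnover genes, 5 rose and 6 fell, so 84.6% differed (median log2 difference -0.06). REXO2, which clears short RNA fragments in mitochondria, rose from 38.9 ± 0.893 to 79.7 ± 3.98 FPKM (log2 difference of 1.02 with SE 0.0399, limma adjusted p = 6.71e-09). TRMT10C and PRORP, subunits of the mitochondrial RNase P that cuts the 5′ end of tRNAs, rose, with log2 differences of 0.63 and 0.38, while the remaining subunit, HSD17B10, fell from 64.1 ± 3.0020 to 54.4 ± 1.13 FPKM. FASTKD3, a FASTKD2 relative, fell from 4.95 ± 0.244 to 3.10 ± 0.557 FPKM and MTERF2, a relative of MTERF1, from 2.28 ± 0.0586 to 1.56 ± 0.145 FPKM. The helicase DDX28 had 5.96 ± 0.755 and 4.65 ± 0.823 FPKM (log2 difference of -0.31, limma adjusted p = 0.0257), a call lost in 5 of 18 alternatives, including those leaving out DMSO replicate 1 (-0.22, limma adjusted p = 0.0920) and carfilzomib replicate 3 (-0.18, limma adjusted p = 0.0878). HSD17B10 was named after its values were seen, because it completes the enzyme.

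Among 20 tested RNA modification genes, 9 rose and 6 fell (median log2 difference 0.06). So 75% differed, against 81.6% of all genes tested (36.7% higher and 44.9% lower). GTPBP3 and MTO1, partners that modify the wobble base of mitochondrial tRNAs, both fell, from 9.73 ± 0.355 to 5.85 ± 0.278 FPKM and from 4.10 ± 0.358 to 2.60 ± 0.115 FPKM. Of the pseudouridine synthases, RPUSD3 had a log2 difference of -0.59 and RPUSD4 one of 0.47. QTRT2, of queuosine synthesis, rose to 1.70 times and MRM3, a large-subunit rRNA methyltransferase, to 1.65 times the DMSO mean.

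Of 17 further translation and ribosome assembly factors, 13 fell and 3 rose (median log2 difference -0.27). In this list 94.1% differed, against 81.6% of all genes tested (44.9% lower and 36.7% higher). GUF1, a ribosomal GTPase of mitochondria, fell from 16.6 ± 0.894 to 8.42 ± 0.259 FPKM (log2 difference of -0.90 with SE 0.0477, limma adjusted p = 5.74e-08). C1QBP, a matrix protein that binds the ribosome, fell from 155 ± 3.92 to 99.6 ± 0.859 FPKM and MTFMT, which formylates the initiator tRNA, from 6.20 ± 0.386 to 4.34 ± 0.257 FPKM. The release factors MTRF1L and MTRF1 rose, with log2 differences of 0.84 and 0.35, as did the ribosome assembly protein MPV17L2 (0.21).

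For mtDNA maintenance beyond the replication core, 11 fell and 5 rose of 17 tested (median log2 difference -0.35). Here too 94.1% differed, against 81.6% of all genes tested (44.9% lower and 36.7% higher). DNA2, a nuclease and helicase shared with the nucleus, fell from 7.69 ± 0.199 to 2.46 ± 0.0765 FPKM (log2 difference of -1.33 with SE 0.0498, limma adjusted p = 4.89e-09). SUCLG1, a succinyl-CoA ligase subunit tied to mitochondrial nucleotide supply, fell from 73.1 ± 3.17 to 33.5 ± 0.651 FPKM, and PRIMPOL, a primase, from 2.10 ± 0.223 to 1.04 ± 0.216 FPKM. ATAD3B, an inner membrane ATPase with close copies in the genome that could share reads, rose to 1.67 times the DMSO mean, the topoisomerase TOP3A to 1.23 times and RNASEH1, which removes RNA primers, to 1.20 times.

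Of 11 tested regulators of mitochondrial gene expression, 4 rose and 4 fell (median log2 difference -0.12). This is 72.7% differing, against 81.6% of all genes tested (36.7% higher and 44.9% lower). PPRC1, a coactivator of the PGC-1 family, rose from 8.37 ± 0.287 to 14.8 ± 0.838 FPKM (log2 difference of 0.75 with SE 0.0492, limma adjusted p = 2.63e-07), and MYC from 26.02 ± 0.883 to 40.2 ± 1.76 FPKM. GABPB1, the partner of the ETS-family factor GABPA, rose to 1.34 times the DMSO mean. CREB1, the deacetylase SIRT3 and its relative SIRT1 fell, with log2 differences of -0.72, -0.54 and -0.38. NRF1, the factor that binds many promoters of this pathway, had 5.40 ± 0.425 and 4.84 ± 0.111 FPKM (limma adjusted p = 0.0606). GABPA had 7.82 ± 0.848 and 7.08 ± 0.371 FPKM (limma adjusted p = 0.133), and the coactivator PPARGC1A was under the level tested, at 0.381 ± 0.0315 and 0.309 ± 0.0403 FPKM. ESRRA, the remaining gene of the 4 that fell, went from 13.3 ± 0.646 to 10.4 ± 0.919 FPKM (limma adjusted p = 5.95e-04). PPARGC1B, also under the level tested, had 1.03 ± 0.0883 FPKM with DMSO and 0.443 ± 0.0252 FPKM with carfilzomib. NRF1, GABPA, PPARGC1A, ESRRA and PPARGC1B were named after their values were seen.

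Matches to the motifs of these factors were counted in the RefSeq promoters (GRCh38.p14) of 24 of the 27 nuclear genes, 250 bases before to 50 after the start, on both strands, with MTERF3, TWNK and FASTKD5 not matched. The NRF1 core (GCGC, then A, then any base, then GCGC) was in 4 of them (16.7%), TFAM, TFB1M, POLRMT and POLG2, against 6.28% of 27305 promoters. The ETS core CCGGAAG was in 12 (50%), against 10.7% of promoters. The 27305 promoters were not limited to the genes tested here, so they are an unlike background for expressed genes, and neither difference was tested. Of these 12 genes, 4 rose, 2 fell and 6 did not pass, where 36.7% of all genes tested were higher and 44.9% lower. The 3 promoters with both motifs held them at separate positions. The 250 bases before the start are shown for TFAM (chr10:58385160-58385409, plus strand) and POLRMT (chr19:633538-633787, minus strand), with NRF1 matches in capitals. These are the genes with an NRF1 match that were called lower, a call that POLRMT lost in 4 of 18 alternatives. TFB1M and POLG2, which also have a match, were not called, so 2 of 4 were lower, where 44.9% of all genes tested were lower. In POLRMT 2 matches overlap.
TFAM: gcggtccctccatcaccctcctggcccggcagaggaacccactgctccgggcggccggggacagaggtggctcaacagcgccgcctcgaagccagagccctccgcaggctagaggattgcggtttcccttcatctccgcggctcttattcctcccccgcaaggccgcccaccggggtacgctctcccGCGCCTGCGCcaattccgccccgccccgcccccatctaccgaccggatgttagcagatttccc
POLRMT: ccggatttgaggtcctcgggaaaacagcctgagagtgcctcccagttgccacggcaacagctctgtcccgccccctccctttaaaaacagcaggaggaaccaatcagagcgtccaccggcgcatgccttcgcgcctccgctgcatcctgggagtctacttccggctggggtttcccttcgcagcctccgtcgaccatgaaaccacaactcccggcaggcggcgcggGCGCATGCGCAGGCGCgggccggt
A match describes these letters and was not tested as a binding site.

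The nuclear subunits of the respiratory chain and ATP synthase were compared in the same way. Of 54 tested, 38 fell, 3 rose and 13 did not pass, with a median log2 difference of -0.30, against -0.47 for the 13 mtDNA mRNAs, and this difference between lists was not tested. The share that differed, 75.9%, was below the 81.6% of all genes tested, of which 44.9% were lower and 36.7% higher. DMSO replicate 1 was the highest DMSO library for 46 of the 54, for 6 of the 13 mtDNA mRNAs and for 3465 of all 11153 genes tested, and without it 7 of the 54 were called higher. NDUFV1, the NADH-binding subunit of complex I, fell from 231 ± 8.44 to 106 ± 2.21 FPKM (log2 difference of -1.12 with SE 0.0333, limma adjusted p = 1.12e-09). CYC1, cytochrome c1, and ATP5MC1, of the ATP synthase ring, fell from 55.3 ± 2.61 to 31.6 ± 1.63 FPKM and from 80.5 ± 8.01 to 47.7 ± 2.69 FPKM. NDUFB9, an accessory subunit of complex I, rose from 173 ± 3.60 to 253 ± 5.77 FPKM and NDUFA4, now assigned to complex IV, from 112 ± 10.996 to 134 ± 2.08 FPKM. SDHD, a membrane anchor of complex II, had 53.8 ± 3.66 and 59.4 ± 1.55 FPKM (log2 difference of 0.14, limma adjusted p = 0.0184), a call lost in 4 of 18 alternatives, with quantile normalization (0.10, limma adjusted p = 0.0681) and on leaving out DMSO replicate 3 (0.09, limma adjusted p = 0.0670), carfilzomib replicate 2 (0.13, limma adjusted p = 0.0598) or carfilzomib replicate 3 (0.13, limma adjusted p = 0.0544). The mtDNA mRNAs had 7.36, 7.98 and 8.07 reads per read of the 54 nuclear subunits with DMSO and 7.27, 7.35 and 7.33 with carfilzomib. DMSO replicate 1 was close to the carfilzomib libraries in this ratio, just above the highest of them (7.36 against 7.35), and the other DMSO libraries were further above.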

How the data were processed

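RNA was extracted with a mirVana kit and made into TruSeq Stranded mRNA libraries, per the labels' protocols. The authors deposited a table of FPKM values with a column for each library. The submitters' processing notes list, without role or order, fastp, HISAT2, HTSeq, R 3.2.0 and DESeq2, and the mouse build GRCm39. Whole reads, gene lengths and library totals were recovered from the FPKM values in 19018 of 19021 rows (relative tolerance 1e-13), covering 99.6% of each library total. Because FPKM values are not counts, limma 3.58.1 (R 4.3.3, eBayes with trend, two-sided, Benjamini-Hochberg adjustment) was fitted to log2(FPKM + 1) over 11153 rows averaging 1 FPKM or more. It was run on simulated data in which only a small part of the genes changed. That setting differs from these data, where most genes were called, so it cannot show how the adjustment behaves here. Differences on this scale understate the change of low genes. Values are mean ± SD over 3 libraries. All 40 members were named, with the 3 largest called rises and falls of each further list. Members, lists and tests were chosen with earlier results of these data known. Alternatives were other pseudocounts (0.1 and 5), filters (none and 5 FPKM), scalings and limma settings, limma-voom on recovered reads, the replicate number as a block, and each library left out. Those on the further lists, and libraries left out of the shares, were added after seeing the data.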

Additional observations from a re-analysis of the deposited data

How the results depend on the processing

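Of the 40 genes, 24 kept their call or lack of one in every alternative run for them, and 3 of these, TFB1M, MTPAP and TSFM, none of them called, changed sign in at least 1 alternative. All 13 mtDNA mRNAs were called lower in each alternative except quantile normalization, where 7 were lower, 4 higher and 2 not called. There the log2 difference was 0.13 for ND1, 0.16 for ND3, 0.0945 for ND4L, 0.36 for ND5 and 0.0460 for COX1. By construction that method gives a row the mean value of its rank, and these mRNAs take up much of the top ranks. Of the nuclear genes, 9 to 14 were called higher and 6 to 8 lower over the alternatives run. Leaving out each library in turn, the ratio of mtDNA read shares was 0.741 to 0.749, and 6 shares in the pool were higher and 4 lower each time. In the further lists, 3 RNA processing genes were higher and 2 regulators lower with a mean of at least 5 FPKM, where fewer genes are tested. Regulators called lower rose to 6 with scaling to the library total without the 13 mtDNA mRNAs and without DMSO replicate 1. They were also 6 with no filter, where more genes are tested. Of nuclear respiratory subunits, 7 were higher with median-of-ratios scaling, 7 with TPM, 5 with the replicate block and 2 to 7 on leaving out a library; the cause was not tested. Same-numbered libraries did not deviate together (r of -0.0121, -0.00341 and 0.0126 for numbers 1 to 3), and with the replicate block 13 mtDNA mRNAs were lower and 12 nuclear genes higher and 8 lower, POLG2 being added (-0.29, limma adjusted p = 0.0127). A pseudocount of 5 shrinks the differences of low genes, for example TEFM to 0.25. POLG2 rested on the fewest reads of the 40, 175 to 327 a library.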
